A study of Rattus norvegicus with 6 samples.

Results

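The voltage-gated potassium channels of the Kv2, Kv3 and Kv4 families were followed across 6 pools of rat tissue labelled as cerebellum. The 6 genes are Kcnc1, Kcnc2 and Kcnc4 of the Kv3 family, Kcnd2 and Kcnd3 of the Kv4 family, and Kcnb2 of the Kv2 family. They were found by symbol on the array, where they have 7 of the 26419 features, and the brightest feature of each gene was used. Kcnc2 has 2 features, 1 for each of the transcript variants a and b, and its variant b feature is the brighter.

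The series set 3 pools from rats gavaged with 40% alcohol (15 ml/kg) against 3 pools from rats gavaged with the same volume of brine (saline). All rats were male Sprague-Dawley animals, 8 to 10 weeks old and weighing 240 to 260 g, that had fasted for 12 hours. Each pool mixed the cerebellar tissue of 3 rats, so the spread between pools hides that between single rats. Each pool was hybridised to 1 single-colour NimbleGen array, and levels are log2 values of the authors' RMA intensity (robust multi-array average, a summary of the probes of a feature). An intensity of 50, or 5.64 on the log2 scale, is the floor under which a level is called low.

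Kv channels open when a neuron depolarises and let potassium out, which ends the action potential and sets how soon the next can start. Kv3 channels open on strong depolarisation and close fast, and they are known for letting cerebellar and auditory brainstem neurons fire at high rates. Kv4 channels carry a transient current below the spike threshold, the A-type current of cerebellar granule cells among others, and work in a complex with Kcnip and Dpp proteins. Kv2 channels are slower delayed rectifiers that combine with electrically silent subunits and cluster where the endoplasmic reticulum meets the plasma membrane. The Shaw2 channel of Drosophila, the fly relative of Kv3, is known to be blocked by ethanol.

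The pools did not all carry the markers of cerebellum, and the differences between alcohol and brine are therefore given with and without alcohol pool 2 and brine pool 1. The median of 8 granule cell markers was 7.52 in alcohol pool 2 and 8.16 in brine pool 1, against 13.31 to 13.38 in the other 4 pools. The median of 6 Purkinje cell markers was 9.21 and 9.53, against 13.91 to 14.07. The Purkinje gene Pcp2 was at 5.27 and 5.65 in these pools, the former under the floor and the latter just above it, and the granule neuron factor Neurod1 stood at 5.41 and 6.79. Of 8 brainstem markers, 6 were higher in both pools than in any of the other 4, among them the serotonin-synthesising enzyme Tph2 at 9.96 and 10.61 against 4.68 to 5.56. The oligodendrocyte list had medians of 14.68 and 14.65, against 12.71 to 13.58. The median of 6 general neuronal markers was 13.68 and 13.74, against 13.97 to 14.02. This median hides shifts both ways, as 3 of the 6 were lower in both pools than in any of the other 4 and 2 were higher. The random-sequence control probes lay between 23.3 and 25.5 on the intensity scale.

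**Figure D1:**
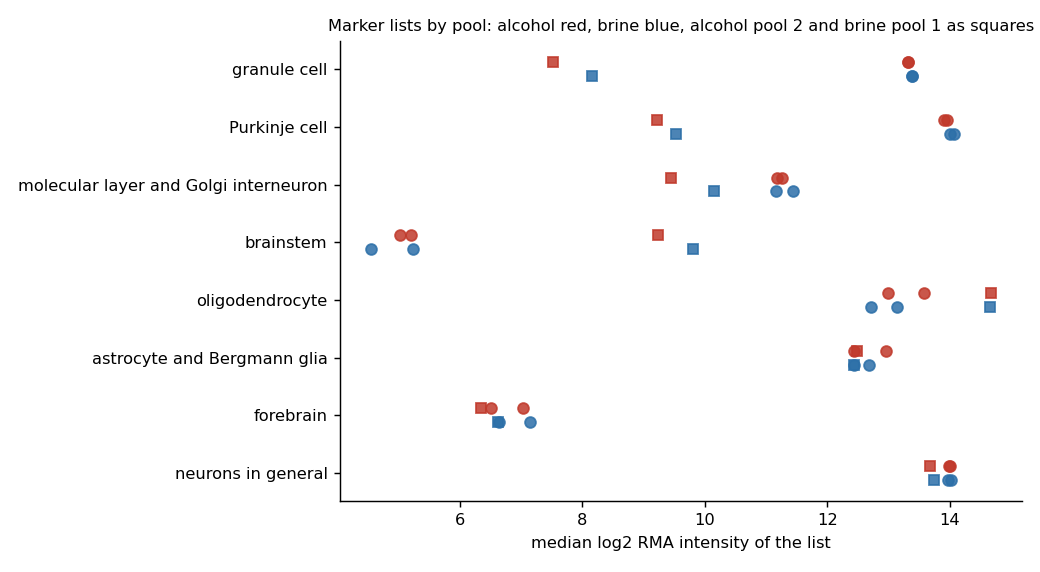
Median log2 RMA intensity of each marker list (horizontal axis) in the 3 alcohol pools (red) and 3 brine pools (blue), with alcohol pool 2 and brine pool 1 as squares. The squares lie far left of the other pools for granule cells (7.52 and 8.16 against 13.31 to 13.38) and far right for brainstem (9.24 and 9.80 against 4.55 to 5.23).

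All 7 features were above the floor on all 6 arrays. By the order of the pools, 5 of the 6 genes fell into 2 patterns. Kcnb2 fell into neither by a small margin, with brine pool 1 at 7.05 and alcohol pool 1 at 7.00. Kcnc1, Kcnd2 and Kcnd3 were lower in alcohol pool 2 and brine pool 1 than in any of the other 4 pools, and of these Kcnc1 and Kcnd2 had the profiles closest to each other. Kcnc2 and Kcnc4 were higher there. The promoters of Kcnc1, Kcnd2, Kcnc2 and Kcnc4 are printed because they stand for the 2 patterns. Each runs from 250 bases before to 50 bases after a transcript start, taken from RefSeq on the build GRCr8, 5′ to 3′ on the gene's strand. Capitals mark the E-box CANNTG, the core bound by Neurod1 and other helix-loop-helix factors, and the GC box GGGCGG or its reverse complement CCGCCC.
Kcnc1, chr1:106038997-106039296, plus strand: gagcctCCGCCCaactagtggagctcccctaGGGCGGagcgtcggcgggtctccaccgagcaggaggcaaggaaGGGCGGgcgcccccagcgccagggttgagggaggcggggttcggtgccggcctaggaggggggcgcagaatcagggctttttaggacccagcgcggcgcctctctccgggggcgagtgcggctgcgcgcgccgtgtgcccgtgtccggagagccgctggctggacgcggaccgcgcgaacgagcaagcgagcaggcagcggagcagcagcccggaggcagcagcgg
Kcnd2, chr4:50742235-50742534, plus strand: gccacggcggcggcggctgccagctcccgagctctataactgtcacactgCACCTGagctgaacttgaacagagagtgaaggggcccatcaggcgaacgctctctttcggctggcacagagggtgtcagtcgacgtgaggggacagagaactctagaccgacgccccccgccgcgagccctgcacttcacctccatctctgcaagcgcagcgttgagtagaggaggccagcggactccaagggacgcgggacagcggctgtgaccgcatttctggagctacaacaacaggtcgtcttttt
Kcnc2, chr7:49587364-49587663, plus strand: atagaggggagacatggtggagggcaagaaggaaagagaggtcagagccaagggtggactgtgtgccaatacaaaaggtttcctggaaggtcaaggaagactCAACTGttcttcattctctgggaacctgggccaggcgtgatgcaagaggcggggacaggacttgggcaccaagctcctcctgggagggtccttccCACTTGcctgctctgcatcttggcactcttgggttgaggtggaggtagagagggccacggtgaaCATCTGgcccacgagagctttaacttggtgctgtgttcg
Kcnc4, chr2:197788384-197788683, minus strand: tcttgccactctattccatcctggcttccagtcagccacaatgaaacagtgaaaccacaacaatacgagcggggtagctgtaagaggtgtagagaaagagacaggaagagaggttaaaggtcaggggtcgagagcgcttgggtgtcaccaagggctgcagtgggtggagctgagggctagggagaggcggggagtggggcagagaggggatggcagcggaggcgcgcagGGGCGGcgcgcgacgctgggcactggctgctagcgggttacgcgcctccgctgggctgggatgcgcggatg

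Promoter windows were given for 5 of the 6 genes, and Kcnb2 is named only. An E-box on either strand was found 3 times in the Kcnc2 window, 1 time in that of Kcnd2 and 0 times in those of Kcnc1, Kcnc4 and Kcnd3, while 71.6% of 27457 rat promoter windows of this length held 1 or more. A GC box was found 3 times in the Kcnc1 window, 1 time each in those of Kcnc4 and Kcnd3, and 0 times in those of Kcnc2 and Kcnd2, against 34.9% of all windows with 1 or more. The E-box variant CAGATG or CATCTG was in the Kcnc2 window alone among the 5, and in 16.3% of all windows. TATAAA was in 0 of the 5 and in 14.3% of all. The dinucleotide CG occurred 48 times in the Kcnd3 window, 36 times in Kcnc1, 23 times in Kcnd2, 19 times in Kcnc4 and 5 times in Kcnc2, where the median window held 7. E-boxes and GC boxes did not divide the genes along the 2 patterns. The CG count was higher in the 3 genes that were lower in alcohol pool 2 and brine pool 1 than in Kcnc2 and Kcnc4, which is a description of 5 windows, and no binding was measured here.

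Among the Kv3 genes, Kcnc1 encodes Kv3.1, the channel of fast-spiking neurons and of cerebellar granule cells. Its level was 13.10, 11.59 and 13.28 in alcohol pools 1, 2 and 3, and 11.71, 13.19 and 13.01 in brine pools 1, 2 and 3. The 4 pools with cerebellar markers lay within 0.27 of each other, and alcohol pool 2 and brine pool 1 lay below all of them, so that the 4 pools averaged 2.83-fold higher on the intensity scale. Alcohol and brine overlapped, with means of 12.66 ± 0.93 and 12.64 ± 0.81 (SD, n = 3). The difference of alcohol minus brine was 0.02 (SE 0.59, 95% interval -1.40 to 1.44, adjusted p = 1.00 in limma over all features). In the 4 pools alone it was 0.09 (SE 0.17, 95% interval -0.37 to 0.55, adjusted p = 0.920 in limma).

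Kcnc2 encodes Kv3.2, a delayed rectifier of fast-spiking interneurons and of projection neurons. Its variant b feature was at 11.38, 11.63 and 11.25 in alcohol pools 1, 2 and 3, and at 11.88, 11.47 and 11.51 in brine pools 1, 2 and 3. Here alcohol pool 2 and brine pool 1 were the highest of the 6, by 0.35 on average over the other 4. Alcohol and brine overlapped through alcohol pool 2, which lay above brine pools 2 and 3. The group means were 11.42 ± 0.19 with alcohol and 11.62 ± 0.22 with brine (SD, n = 3), a difference of -0.21 (SE 0.20, 95% interval -0.70 to 0.29, adjusted p = 1.00 in limma). It was -0.18 in the 4 pools (SE 0.16, adjusted p = 0.800 in limma) and -0.25 between alcohol pool 2 and brine pool 1.

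The variant a feature of Kcnc2, which stands for a transcript with another coding end, varied more. It was at 7.30, 8.70 and 7.80 in alcohol pools 1, 2 and 3, and at 9.31, 8.44 and 8.02 in brine pools 1, 2 and 3. Its values spanned 2.00 over the 6 pools against 0.63 for variant b, and its 2 highest pools were again alcohol pool 2 and brine pool 1. The difference between groups was -0.66 (SE 0.47, 95% interval -1.79 to 0.48, adjusted p = 1.00 in limma), with group means of 7.93 ± 0.71 and 8.59 ± 0.66 (SD, n = 3). Without alcohol pool 2 and brine pool 1 it was -0.68 (SE 0.26, 95% interval -1.38 to 0.01, adjusted p = 0.632 in limma). With a term in the model for alcohol pool 2 and brine pool 1, called the marker term, the standard error was 0.19 and the 95% interval -1.14 to -0.17. The adjusted p was 0.452 in limma (0.0163 before adjustment), so this did not pass, and 9.47% of all features had an unadjusted p under 0.05 in that fit. Both Kcnc2 features were lower with alcohol among the 4 pools, without overlap, and again between alcohol pool 2 and brine pool 1. Kcnc2 was the only 1 of the 6 genes to do so in either direction, and 14.4% of all features were lower and 10.8% higher in this way, so the count is near the background.

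Kcnc4 encodes Kv3.4, the Kv3 channel that inactivates quickly. On this array it stands for a predicted transcript. Its level was 12.17, 12.64 and 12.09 in alcohol pools 1, 2 and 3, and 12.48, 12.35 and 12.30 in brine pools 1, 2 and 3. The order of the pools resembled that of Kcnc2, with alcohol pool 2 and brine pool 1 highest, by 0.33 on average. The groups overlapped, with means of 12.30 ± 0.30 and 12.38 ± 0.09 (SD, n = 3) and a difference of -0.08 (SE 0.21, 95% interval -0.58 to 0.43, adjusted p = 1.00 in limma). Among the 4 pools both alcohol values lay below both brine values, by 0.19 on average (difference -0.19, SE 0.16, adjusted p = 0.785 in limma), whereas alcohol pool 2 lay 0.16 above brine pool 1.

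**Figure D2:**
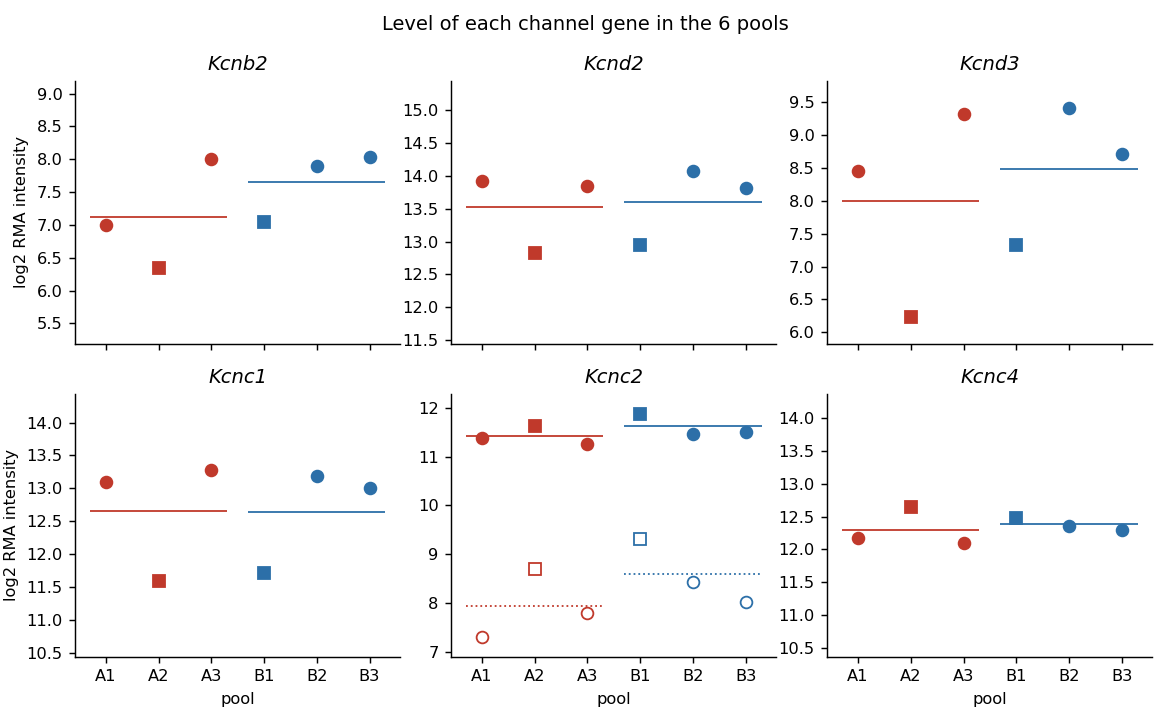
Level of each gene (vertical axes, log2 RMA intensity, each panel with its own range) in alcohol pools A1 to A3 (red) and brine pools B1 to B3 (blue), with A2 and B1 as squares and lines at the group means. Open symbols and dotted lines are the variant a feature of Kcnc2. The squares are lowest for Kcnd2, Kcnd3 and Kcnc1 and highest for Kcnc2 and Kcnc4.

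Of the Kv4 genes, Kcnd2 encodes Kv4.2, a subunit of the A-type current of granule cells. Its level was 13.92, 12.82 and 13.85 in alcohol pools 1, 2 and 3, and 12.95, 14.07 and 13.81 in brine pools 1, 2 and 3. Alcohol pool 2 and brine pool 1 were the lowest, and the other 4 pools, which lay within 0.26 of each other, averaged 2.04-fold higher. The groups overlapped, at 13.53 ± 0.62 and 13.61 ± 0.59 (SD, n = 3), and differed by -0.08 (SE 0.42, 95% interval -1.10 to 0.94, adjusted p = 1.00 in limma). In the 4 pools the difference was -0.06 (SE 0.18, 95% interval -0.52 to 0.41, adjusted p = 0.953 in limma).

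Kcnd3 encodes Kv4.3, found in granule cells and molecular layer interneurons. Its level was 8.46, 6.23 and 9.32 in alcohol pools 1, 2 and 3, and 7.33, 9.42 and 8.72 in brine pools 1, 2 and 3. Its span of 3.19 on the log2 scale over the 6 pools was the widest of the 6 genes. Over the 4 pools with cerebellar markers it spanned 0.96, less than Kcnb2 (1.05), and these pools averaged 4.60-fold above alcohol pool 2 and brine pool 1. Alcohol pool 2 lay 1.11 below brine pool 1. The groups overlapped, at 8.00 ± 1.60 and 8.49 ± 1.06 (SD, n = 3), a difference of -0.49 (SE 0.90, 95% interval -2.65 to 1.68, adjusted p = 1.00 in limma). In the 4 pools it was -0.18 (SE 0.39, 95% interval -1.22 to 0.86, adjusted p = 0.927 in limma).

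The partners of Kv4 channels were taken from a list of 20 other subunits and partners. Of the 6 Kv4 partners, 5 lay below the other 4 pools in both alcohol pool 2 and brine pool 1, the direction of Kcnd2 and Kcnd3, against 32.4% of features above the floor on all arrays. The calcium-binding protein genes Kcnip4 and Kcnip3, whose products bind the Kv4 amino end, differed from the other 4 pools by -1.05 and -1.15 there. Kcnip1 differed by -0.84, and Dpp10 and Dpp6, membrane proteins that speed Kv4 gating, by -0.56 and -0.36. Kcnip2 has 3 features, and its brightest, used here, differed by 0.06 and overlapped. Its other features differed by 0.02 and 0.33 and overlapped as well. Kcnd1, the Kv4.1 gene, went the other way, at 7.94 in alcohol pool 2 and 8.15 in brine pool 1 against 6.41 to 7.24. Between alcohol and brine the Kv4 partners differed by a median of -0.12 with all 6 pools and -0.05 in the 4 pools. In limma 0 of 6 passed in either fit, against 0.00% of all features. With all 6 pools Dpp10 had the lowest difference among them (-0.23, SE 0.27, adjusted p = 1.00 in limma), and in the 4 pools its difference was -0.15. The features of Kcnip2 did not share a direction with all 6 pools, at -0.15 for the brightest and -0.07 and 0.32 for the others.

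Kcnb2 encodes Kv2.2, a delayed rectifier. Its level was 7.00, 6.34 and 8.01 in alcohol pools 1, 2 and 3, and 7.05, 7.89 and 8.04 in brine pools 1, 2 and 3. Alcohol pool 2 was lowest, but brine pool 1 lay just above alcohol pool 1, so these 2 pools were not both below the other 4. The mean of alcohol pool 2 and brine pool 1 still differed from that of the other 4 pools by -1.04, beside -1.03 for Kcnd2. The groups overlapped, at 7.12 ± 0.84 and 7.66 ± 0.53 (SD, n = 3), and differed by -0.55 (SE 0.48, 95% interval -1.72 to 0.62, adjusted p = 1.00 in limma). In the 4 pools the difference was -0.46 (SE 0.37, 95% interval -1.44 to 0.51, adjusted p = 0.784 in limma).

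The silent subunits, which make no channel alone and alter Kv2 currents, were often near the floor. Of 10 genes, Kcng3 and Kcnv2 were low on all 6 arrays and 3 were above the floor on all 6. Kcnv1 (Kv8.1) was at 7.59 in alcohol pool 2 and 7.53 in brine pool 1 against 9.65 to 10.13 in the others, and Kcng4 (Kv6.4) at 7.91 and 8.37 against 9.18 to 9.91. Kcns2 (Kv9.2) had the reverse order, at 9.32 and 8.41 against 6.59 to 7.75. Kcns3 (Kv9.3) was above the floor in alcohol pool 2 and brine pool 1 alone, at 7.11 and 8.31. Of the Kv2 cluster proteins, the tethers Vapa and Vapb and the adhesion protein Amigo1 differed by 0.06, 0.31 and 0.15 between groups with all 6 pools, and by 0.08, 0.48 and 0.27 in the 4 pools. In limma 0 of 3 passed in either fit, against 0.00% of all features.

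**Figure D3:**
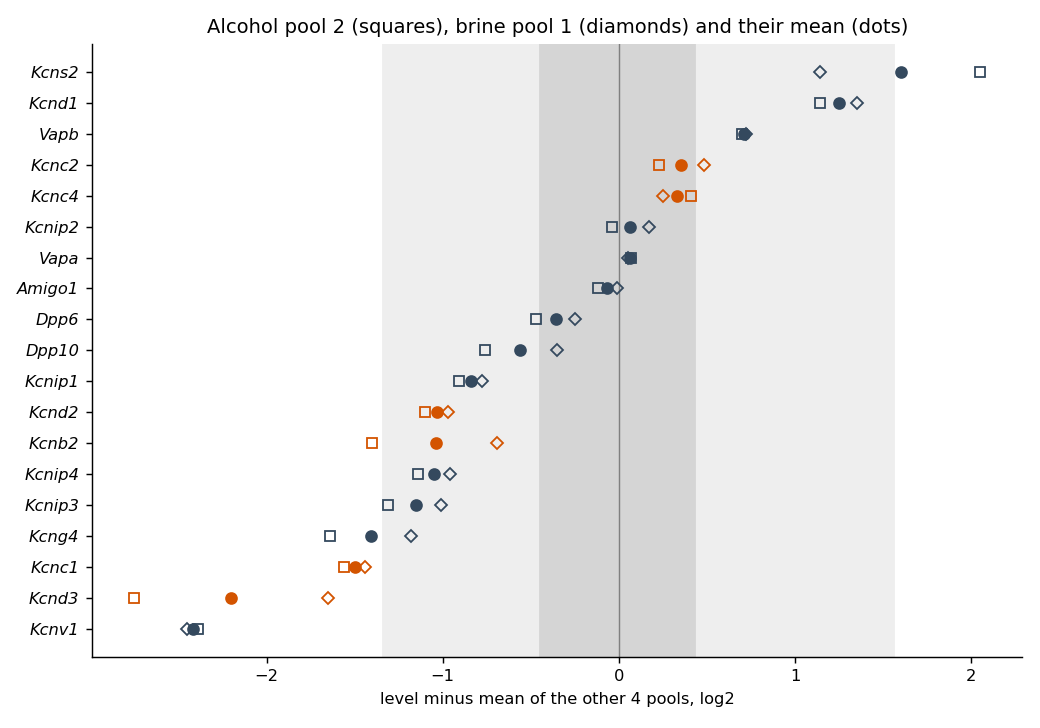
Level in alcohol pool 2 (squares), in brine pool 1 (diamonds) and their mean (dots) minus the mean of the other 4 pools (horizontal axis, log2), for the 6 channel genes (orange) and the 13 listed partners above the floor on all arrays (dark). The dark and light grey bands hold the middle 50% and 90% of features above the floor on all arrays. Of the channel genes, Kcnd3 (-2.20) and Kcnc1 (-1.50) lie outside the bands, and Kcnc2 (0.35, variant b feature) and Kcnc4 (0.33) inside the inner one. The variant a feature of Kcnc2 (1.11) is not drawn. The partners Kcnv1 (-2.42), Kcng4 (-1.41) and Kcns2 (1.60) lie outside as well.

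Set beside all features, the count of genes apart in alcohol pool 2 and brine pool 1 was not unusual, and the sizes differed between the genes. Among the 15882 features above the floor on all arrays, 32.4% lay below the other 4 pools in both of these pools and 30.9% lay above, against 3 and 2 of the 6 genes. Over these features the difference had a median of -0.03, and the middle 90% lay between -1.34 and 1.56. A lower value than that of Kcnd3 (-2.20) was found for 1.67% of features, than that of Kcnc1 (-1.50) for 3.93%, than that of Kcnb2 (-1.04) for 8.24% and than that of Kcnd2 (-1.03) for 8.36%. For the variant b feature of Kcnc2 and for Kcnc4 these shares were 71.9% and 71.2%. The variant a feature of Kcnc2 had a larger difference of 1.11. That lay outside the middle 50% of features (-0.45 to 0.43) and inside the middle 90%. The granule and Purkinje cell lists were lower and the brainstem and oligodendrocyte lists higher in the same pools, and their part in the levels of the channel genes was not tested. In mixed tissue, fewer cells of a type and less RNA in each cell cannot be told apart.

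By profile, each gene was also set beside all other named features above the floor on all arrays (13424 for 5 of the genes and 13423 for Kcnc2), using the root mean square difference of log2 profiles centred on their own mean over the 6 arrays. For Kcnc1 the closest were Zfp395 (0.0364), Cdh18 (0.0439) and Hook1 (0.0459). For Kcnd2 they were Tbc1d9 (0.0349), Ewsr1 (0.0374) and Cntnap1 (0.0439). For Kcnc2 they were Tram1 (0.0337), Gprasp1 (0.0348) and Bcas3 (0.0417), and for Kcnc4 they included Dapk3 (0.0374) and Lgals8 (0.0385). Kcnd3 and Kcnb2 had no neighbour this close, with Fstl5 (0.26), Nptxr (0.27) and Sowaha (0.28) nearest to Kcnd3, and Syngr1, Prp2l2 and Zc3h6 (0.19 each) nearest to Kcnb2. Between the channel genes themselves the difference was 0.12 for Kcnc2 and Kcnc4 and 0.24 for Kcnc1 and Kcnd2, and it reached 1.29 for Kcnc4 and Kcnd3. Kcnb2 differed by 0.41 from Kcnd2 and by 0.44 from Kcnc1, less than Kcnd3 did (0.69 and 0.51).

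The comparison of alcohol with brine asks whether acute intoxication changed the levels of these channel genes. Of the 6 genes, 0 passed the threshold of 0.05 in limma after adjustment, and the background was 0.00% of the 26419 features, so the count says nothing particular to the channels. Before adjustment 0 of the 6 had a p under 0.05, against 1030 features (3.90%). The median difference of the 6 genes was -0.14, beside a median of -0.02 over all features. In the 4 pools the median was -0.18 and 0 of 6 passed, against 0.00% of all features, and limma's adjusted p lay between 0.784 and 0.953. Before adjustment 0 of 6 had a p under 0.05 there, against 8.03% of all features. With the marker term they ranged from 0.575 to 0.975 in limma, again with 0.00% of all features called. The 3 alcohol values were all above or all below the 3 brine values for 0 of the 6 genes, against 4.39% and 4.36% of all features. For 1 gene and 3 pools in each group, the smallest p of an exact permutation test is 0.10.

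**Figure D4:**
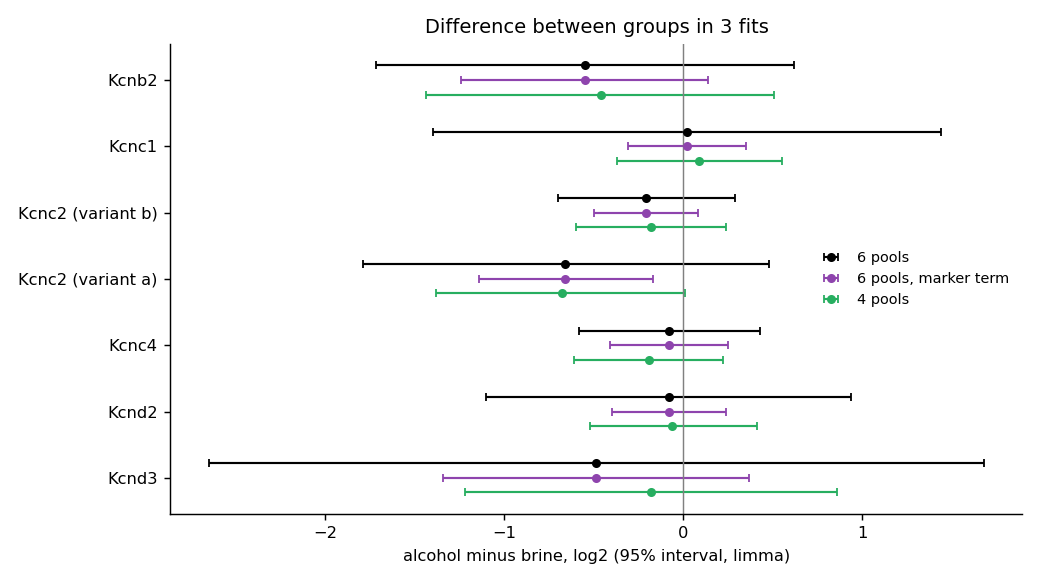
Difference of alcohol minus brine (horizontal axis, log2) with its 95% interval from limma for each gene, and for both Kcnc2 features, over all 6 pools (black), over 6 pools with the marker term (purple) and over the 4 pools with cerebellar markers (green). The black intervals include 0 for every feature shown, and that of Kcnd3 is widest (-2.65 to 1.68). With the marker term the interval of the variant a feature of Kcnc2 (-1.14 to -0.17) does not include 0 (adjusted p = 0.452 in limma).

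The intervals state what each fit could not exclude. With all 6 pools and the group as only term the interval of Kcnd3 reached -2.65, and that of Kcnc1 reached 1.44, on the log2 scale. With the marker term the intervals were -1.34 to 0.37 for Kcnd3 and -0.31 to 0.35 for Kcnc1. Within the 4 pools the interval was -0.37 to 0.55 for Kcnc1, -0.52 to 0.41 for Kcnd2, -0.60 to 0.24 for the variant b feature of Kcnc2 and -0.61 to 0.22 for Kcnc4. Those of Kcnb2 and Kcnd3 were wider.

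The direction of 4 differences hung on single pools. That of Kcnc1 turned below 0 without alcohol pool 1 (-0.20), without alcohol pool 3 (-0.29) and without brine pool 1 (-0.45). That of Kcnd2 turned above 0 without alcohol pool 2 (0.28), without brine pool 2 (0.15) and without brine pool 3 (0.02). Kcnd3 was at 0.40 without alcohol pool 2, and Kcnc4 at 0.03 without alcohol pool 3. Kcnb2 and Kcnc2 stayed below 0 whichever pool was left out, between -1.0 and -0.16 and between -0.31 and -0.08. Leaving out only alcohol pool 2 or only brine pool 1 keeps the other in 1 group, which adds to these shifts. With both left out the difference was 0.09 for Kcnc1, -0.06 for Kcnd2, -0.18 for Kcnd3 and -0.19 for Kcnc4.

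**Figure D5:**
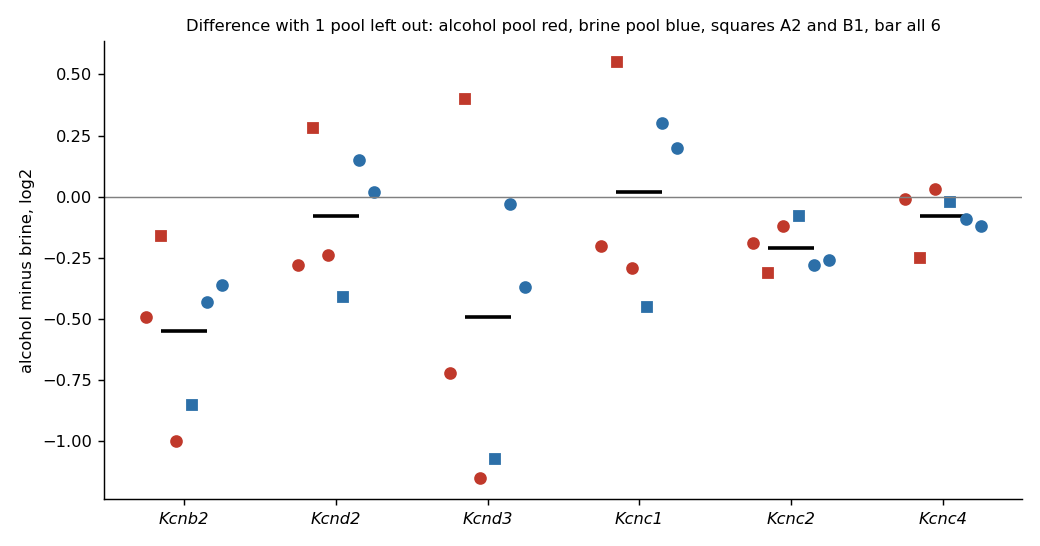
Difference of alcohol minus brine (vertical axis, log2) for each gene with 1 pool left out, in red for an alcohol pool and blue for a brine pool, with squares for alcohol pool 2 and brine pool 1 and a black bar for all 6 pools. For Kcnc1 the points run from -0.45 to 0.55, and for Kcnb2 and Kcnc2 all points lie below 0.

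Over the 20 other subunits and partners, 0 passed in limma in either direction with all 6 pools or with 4, against 0.00% of all features in both fits. Before adjustment 0 had a p under 0.05 with all 6 pools, against 3.90% of all features. With 4 pools 1 did, against 8.03%. It was the silent subunit gene Kcnf1, above the floor on 3 of the 6 arrays, with a difference of 0.83 (SE 0.23, adjusted p = 0.569 in limma, 0.0179 before adjustment). The difference was above 0 for 10 and below 0 for 10, with a median of -0.01 beside -0.02 over all features. The median was 0.05 in the 4 pools, 0.14 without alcohol pool 2 and 0.15 without brine pool 1, so it had no settled sign. For the 13 genes above the floor on all arrays it was -0.09 with all 6 pools and -0.05 with 4. Across alcohol pool 2 and brine pool 1, 7 of these 13 lay below the other 4 pools and 3 above, against 32.4% and 30.9% of features.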

How the data were processed

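Per the labels, total RNA of each pool was labelled with Cy3 and hybridised to a NimbleGen rat array. For each array the authors deposited a linear intensity per feature, summarised by RMA per the submitters' processing notes (no version; joint normalization, scanner software and build are not given in the sources used here). Most features (26368 of 26419) have 5 probes. Median array intensities lay between 213.2 and 232.8. A deposited value table of 18107 features matched these files within a relative difference of 9.1e-07.

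No normalization was added, and log2 was taken. Features were named through gene identifiers in RefSeq (GRCr8; 20681 features), otherwise from the files. The test was limma's moderated test (lmFit and eBayes of limma 3.58.1, R 4.3.3), two-sided, with the group as its only term. Adjustment was by Benjamini-Hochberg over all 26419 features. The test was tried on simulated data that lacked the distance of alcohol pool 2 and brine pool 1 from the other pools. That trial therefore does not cover the spread that these pools add. Python 3.11.15, pandas 2.3.3, numpy 2.4.6 and matplotlib 3.10.9 prepared tables and plots. The number of arrays limits the precision, and so does the handling of alcohol pool 2 and brine pool 1. The standard error of Kcnc1 was 0.59 with all 6 pools, 0.17 in the 4 pools and 0.13 with the marker term.

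The genes, lists, marker term and alternatives were chosen with earlier results of these data known. All 6 genes, the listed partners, the 3 closest profiles of each gene and up to 4 markers of a list could be named; some of these are not reported here, and the listed genes among them were left out of the counts over the partners. Alternatives were the value table, median centring, quantile normalization, a filter on dim features, leaving out pools, the marker term, the replicate number as a block, other variance models and gene means. Shared replicate numbers were not taken as pairs, and whether such pools were handled together could not be told.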

Additional observations from a re-analysis of the deposited data

How the results depend on the processing

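Besides the per-array values, 16 other settings were run, and the count of features called by limma was 0 in each setting that tests all features (1030 at an unadjusted p under 0.05 with all 6 pools), as were the counts over the 6 channel genes and over the 20 partners. Leaving out 1 pool moved the difference of alcohol minus brine between -0.45 and 0.55 for Kcnc1, -0.25 and 0.03 for Kcnc4, -0.41 and 0.28 for Kcnd2 and -1.15 and 0.40 for Kcnd3, and the median of the partner list between -0.05 and 0.15. With array weights Kcnd2 was at 0.03 and the partner median at 0.10, against -0.08 and -0.01 as reported; the cause was not tested. Under median centring, quantile normalization and the other settings the 6 differences kept their sign. The value table and the filter on dim features hold the same 18107 features. The replicate number as a block left the differences unchanged, with 0 features called by limma and 647 at an unadjusted p under 0.05. Deviations of same-numbered pools from their group means correlated at -0.78, -0.81 and 0.74 over features. Those of alcohol pool 2 and brine pool 1, which differ in number, correlated at 0.93. The distance of these pools from the others shapes such values, so they cannot show whether same-numbered pools were handled together. The numbers were not taken as pairs. Precision is limited by 3 pools a group and, with the group as only term, by the distance of alcohol pool 2 and brine pool 1 from the others. Of the 6 genes, Kcnb2 and Kcnd3 lay closest to the floor, in alcohol pool 2 (6.34 and 6.23).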
